A study of Mus musculus with 677 samples.

Results

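Transit amplifying (TA) cells are the dividing progenitors of the intestinal crypt. The cells described here are those whose deposited name ends in the annotation TA, which came to 25.8% of 677 single cells: 48 and 37 from wild-type mice coded M1 and M2, and 47 and 43 from knockout mice coded M1 and M2. RNA of single cells from the epithelium of mouse intestine was read by SMART-Seq2, which makes a library from the whole transcripts of each single cell. All mice were C57BL/6, either wild-type (WT) or Atg16l2 knockout (KO), a knockout of a homologue of the autophagy gene Atg16l1. Age, sex and the part of the intestine are not given in the labels, and neither is a sort or gate. Each cell name gives 1 of 9 cell types, a run (1 or 2) and an M code, read here as the animal, so that each genotype has 2 animals, written here as WT M1 or KO M2. The labels leave unsaid whether an M code means the same mouse in both runs.

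In the crypt, stem cells at the base renew themselves under Wnt and Notch signals, and their daughters divide several times as transit amplifying cells while they move up. On the way they stop expressing stem cell genes, leave the cell cycle and take on an absorptive or a secretory fate. The proteins of DNA replication are made mainly before and during S phase, and those of the mitotic spindle in G2 and mitosis, so the transcripts of a single dividing cell show roughly where it stands in the cycle.

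TA was the annotation with the most cells. It took 28.6% of the cells of WT M1, 22.2% of WT M2, 27.3% of KO M1 and 25.3% of KO M2. Within a run the share of an animal lay between 16.5 and 34.1%. Values were deposited as TPM, a relative abundance per transcript length scaled to a fixed total, which leaves the depth of a cell unknown. The number of genes above 0 TPM had a median of 6429 in TA cells (range 4494 to 9188), against 5688 in cells annotated Stem and 6713 in those annotated Enterocyte.prog.early. TA cells of run 1 had more genes above 0 (medians of 6524 to 7000.5 per animal) than those of run 2 (5863.5 to 6182). The annotation was made by the authors from the expression of these cells, so differences between TA and other types are given as descriptions, with no test.

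The annotation was first set against 3 markers of dividing cells. Top2a encodes the topoisomerase that untangles replicated chromosomes, Cdk1 the kinase that drives entry into mitosis and Mki67 the coat protein of mitotic chromosomes detected as Ki-67. Top2a stood at 153.8 TPM in WT M1, 177.5 in WT M2, 209.6 in KO M1 and 224.1 in KO M2, and was above 0 in 89.7% of TA cells. Cdk1 stood at 97.01, 97.4, 118.6 and 126.7 TPM in the same animals and Mki67 at 40.9, 34.01, 43.6 and 45.5 TPM. Stem cells had less of each, with 23.6 ± 12.1 TPM of Top2a, 12.7 ± 6.53 of Cdk1 and 5.26 ± 1.25 of Mki67 (SD, n = 4 animals), and no animal's Stem mean reached the lowest TA mean. Enterocyte.prog.early cells overlapped TA for all 3, with 172.5 ± 47.4, 143.03 ± 43.7 and 46.6 ± 7.95 TPM. All 3 markers were above 0 in 76.6% of TA cells (exact binomial 95% interval 69.6 to 82.6%) and in 76.8% of Enterocyte.prog.early cells (68.9 to 83.4%). The share was 13 of 96 in Stem (13.5%, 7.41 to 22.04%) and 1 of 58 in Enterocyte (1.72%). It was 24 of 70 in Goblet (34.3%, 23.3 to 46.6%) and 6 of 22 in Paneth (27.3%, 10.7 to 50.2%). Enteroendocrine had 5 of 32 (15.6%), Tuft 2 of 7 (28.6%) and Enterocyte.prog.late 5 of 75 (6.67%). These intervals cover counting error only. All 3 together were thus less frequent in Stem and Enterocyte cells than in TA, but did not separate TA from Enterocyte.prog.early. Of the Stem cells, 30 of 96 had none of the 3, and the rest at least 1. Only 6 TA cells had none of the 3.

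The promoters of these genes are shown because each transcript rose with the G2M score of TA cells, which is described below. Spearman's rho per animal was 0.78 to 0.85 for Top2a, 0.64 to 0.85 for Cdk1 and 0.74 to 0.84 for Mki67. All 3 genes are members of that score, so the relation is partly built in. Mcm6, a subunit of the replicative helicase, is added as a gene of S phase, with a rho of -0.57 to -0.32. Each run is the stretch before the most upstream annotated start, from RefSeq on build GRCm38.p6, read 5′ to 3′ on the gene's own strand (minus for all 4). Capitals mark matches on either strand to CCAAT, to TTTGAA (the core of the cell cycle homology region, CHR) and to TTTNGCGC (an E2F site). Their positions are chr11:99024190-99024439 for Top2a, chr10:69352939-69353162 for Cdk1, chr7:135716380-135716629 for Mki67 and chr1:128359706-128359955 for Mcm6.
Top2a: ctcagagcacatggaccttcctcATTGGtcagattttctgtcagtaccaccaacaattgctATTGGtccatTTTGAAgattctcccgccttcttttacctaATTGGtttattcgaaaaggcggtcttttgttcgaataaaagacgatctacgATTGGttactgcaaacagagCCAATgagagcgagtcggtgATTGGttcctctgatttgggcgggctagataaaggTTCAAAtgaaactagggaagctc
Cdk1: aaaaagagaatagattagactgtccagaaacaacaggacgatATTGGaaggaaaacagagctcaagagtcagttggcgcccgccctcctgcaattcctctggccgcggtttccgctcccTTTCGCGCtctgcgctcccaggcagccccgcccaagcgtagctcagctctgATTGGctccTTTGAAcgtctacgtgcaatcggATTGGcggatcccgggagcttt
Mki67: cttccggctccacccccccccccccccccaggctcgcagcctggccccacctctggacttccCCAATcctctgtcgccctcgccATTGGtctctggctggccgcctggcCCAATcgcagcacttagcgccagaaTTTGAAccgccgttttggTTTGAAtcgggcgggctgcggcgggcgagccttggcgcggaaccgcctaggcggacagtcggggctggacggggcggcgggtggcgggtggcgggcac
Mcm6: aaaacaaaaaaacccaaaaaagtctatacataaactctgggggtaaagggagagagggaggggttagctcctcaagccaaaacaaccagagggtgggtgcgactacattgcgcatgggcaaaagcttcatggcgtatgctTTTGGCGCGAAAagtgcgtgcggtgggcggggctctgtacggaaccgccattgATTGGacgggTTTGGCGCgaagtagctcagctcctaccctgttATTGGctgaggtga
The Top2a run held 6 CCAAT and 2 TTTGAA matches, Cdk1 3 and 1 with 1 E2F match, and Mki67 3 and 2. Mcm6 held 2 CCAAT and 3 E2F matches, of which 2 share 4 bases of a palindrome, and no TTTGAA. In the 250 bases before the start, CCAAT was present for 35 of the 46 genes of the G2M list with a RefSeq promoter (76.1%) and for 21 of 30 of the S list (70%), against 37.5% of 27025 genes in that table. TTTGAA was present for 20 of 46 G2M genes (43.5%) and 6 of 30 S genes (20%), against 18.3% of all. TTTNGCGC was present for 4 of 46 (8.70%) and 6 of 30 (20%), against 1.31% of all. A match is a run of letters and was not tested as a bound site.

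**Figure D1:**
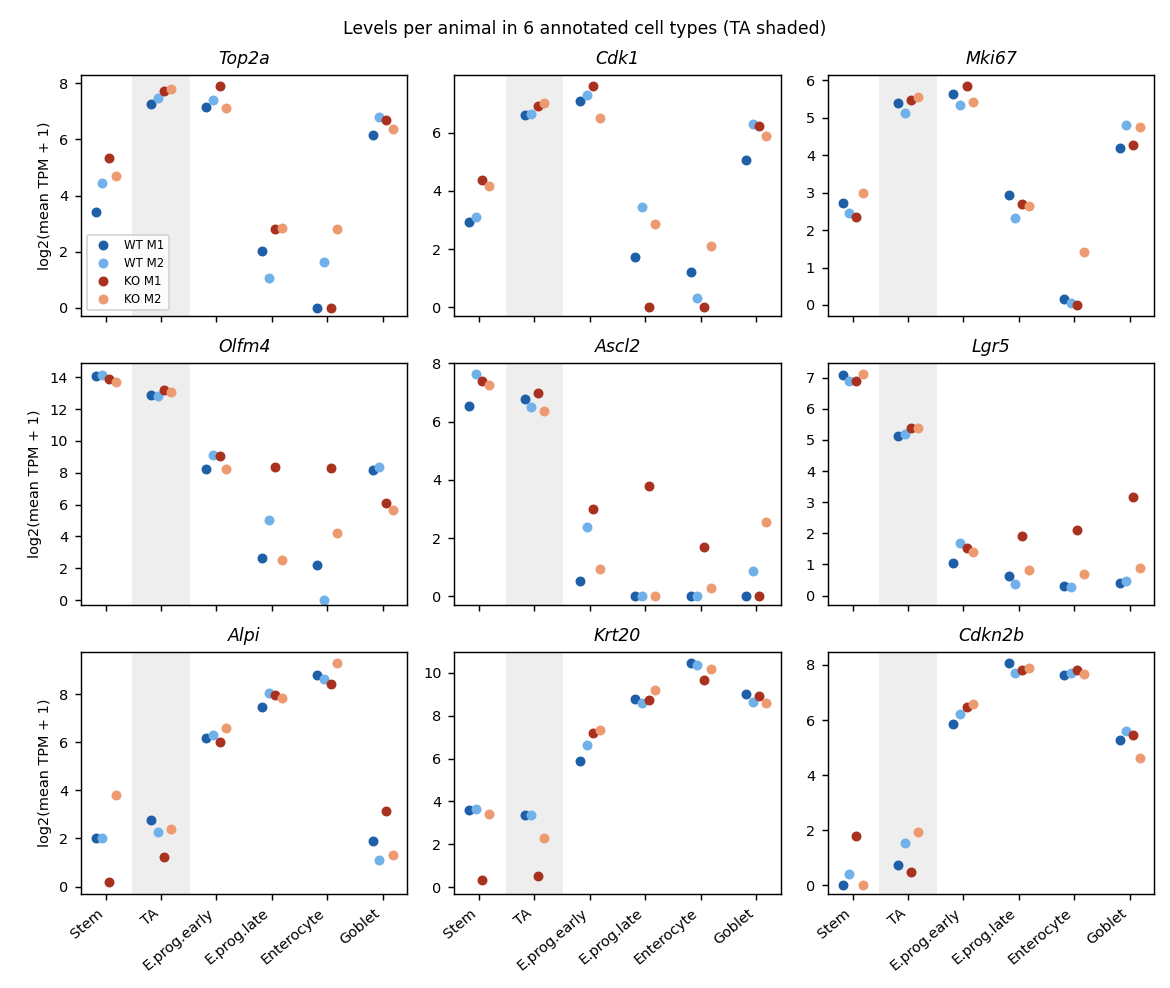
Mean level per animal (points, log2(mean TPM + 1)) of 3 markers of dividing cells, 3 stem cell genes and 3 genes of differentiated cells in 6 annotated types, with TA shaded. Top2a, Cdk1 and Mki67 in TA sit at the level of Enterocyte.prog.early and above Stem, while Olfm4, Ascl2 and Lgr5 in TA sit between those types and Alpi, Krt20 and Cdkn2b are near their Stem level.

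Against Stem cells, TA cells had more of the mitotic transcripts and less of stem cell genes. Of 2759 genes with at least 50 TPM in either type, 62 were higher by at least 1 on the log2(TPM + 1) scale in TA in all 4 animals and 9 were lower. Ranked by the mean difference, the first was the histone gene Hist1h2ao, at 1322 ± 593 TPM in TA and 27.9 ± 19.9 in Stem (SD, n = 4 animals). The spindle proteins Nusap1 (61.3 against 0.37 TPM) and Kif20a (58.9 against 0.80 TPM), the cyclin Ccnb1 (166.3 against 3.94 TPM) and the kinases Aurkb (136.3 against 3.72 TPM) and Nek2 (57.4 against 1.69 TPM) followed. Hist2h3b and Ankle1 complete the 8 largest, with mean log2 differences of 5.06 and 4.59. The level of Hist1h2ao in TA differed by run. It was 2538 TPM in WT M1 and 3172 in WT M2 in run 1, and 940 and 713 in run 2. In KO M1 and KO M2 it was 1140 and 750 TPM in run 1, and 820 and 526 in run 2. Lower in TA were Lgr5, a marker of crypt base stem cells (37.8 ± 3.33 against 127.2 ± 11.6 TPM), and Igfbp4 (92.4 ± 7.99 against 250.1 ± 35.3 TPM). Gkn3, Rnase1, Rnase4, Cyp2e1, Agr3 and Acot1 were also lower on average, with mean differences of -2.92 to -1.54. The level of Lgr5 in TA was 34.1 to 40.7 TPM over the 4 animals and never reached the lowest Stem value of 116.8.

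Against Enterocyte.prog.early cells, TA cells kept stem cell transcripts and lacked those of absorptive cells. Of 2879 genes at 50 TPM or more in either type, 31 were higher by at least 1 in TA in all 4 animals and 74 were lower. Olfm4, a secreted glycoprotein of crypt base cells, stood at 8152 ± 949 TPM in TA, 417 ± 136.4 in Enterocyte.prog.early and 16018 ± 2416 in Stem. Ascl2, the transcription factor of intestinal stem cells, stood at 100.6 ± 19.7 TPM in TA and 3.12 ± 3.04 in Enterocyte.prog.early, and it was above 0 in 73.1% of TA cells against 7.75% of Enterocyte.prog.early cells. Gkn3, Tubb2b, Igfbp4, Ifitm3, Soat1 and Phgdh, an enzyme of serine synthesis, were higher in TA by 2.67 to 4.24. The lower genes were led by Cdkn2b, an inhibitor of the G1 cyclin kinases (1.47 ± 1.15 TPM in TA, 77.7 ± 16.6 in Enterocyte.prog.early). They included Krt20, the keratin of differentiated epithelium (5.78 against 115.5 TPM), Alpi, the alkaline phosphatase of the brush border (3.80 against 77.2 TPM), and the peptidase Enpep (6.30 against 89.3 TPM). Apol10a, St3gal4, Clec2h and Gsdmc2 complete the 8 lowest.

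TA lay between both neighbours for nearly every gene that separates them. Of 30 genes higher in Stem than in Enterocyte.prog.early by at least 2 (log2) in all 4 animals, TA lay between in 30 and was nearer Stem in 28, at a median of 28.5% of the way. Of 73 genes higher in Enterocyte.prog.early by the same rule, TA lay between in 67. It was nearer Stem in 30 of the 73, and the median over the 73 was 71.4% of the way from Stem. Both sets were picked from these same data as genes far apart between the neighbours, so a place between them is a description. No gene at 50 TPM or more was beyond both types by 1 in all 4 animals, in either direction (0 and 0 genes).

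Fixed lists of genes by role were compared by the median log2 difference of its members. The background is 7449 genes at 10 TPM or more in any of the 3 types, of which 21.3% were higher and 10.9% lower in TA than in Stem in all 4 animals. For Enterocyte.prog.early, 22.9% were higher and 21.2% lower in TA. The G2M list was higher in TA than in Stem in all 4 animals for 51 of 51 members (median 2.87), while against Enterocyte.prog.early 3 were higher and 10 lower (median -0.15). Spindle and cytokinesis genes (28 of 28 higher than in Stem, median 3.28) and kinetochore genes (20 of 20, median 2.27) followed the same order. S phase genes had medians above 0 against both: 35 of 39 were higher in TA than in Enterocyte.prog.early (median 0.90) and 22 of 39 higher than in Stem (median 0.60). Replication licensing genes were higher than in Enterocyte.prog.early for 32 of 37 (median 0.86) and than in Stem for 20 of 37 (0.51). For nucleotide synthesis genes these counts were 17 of 18 (0.60) and 6 of 18 (0.30), and for ribosome biogenesis genes 18 of 22 (0.55) and 4 of 22 (0.13). The stem cell list was lower than in Stem for 17 of 20 members (median -0.90) and higher than in Enterocyte.prog.early for 19 of 20 (median 2.05). The absorptive list had 5 members higher and 5 lower than in Stem (median 0.10) and was lower than in Enterocyte.prog.early for 17 of 21 (median -0.96). KO M2 stood apart from the other animals in the mitotic lists of TA against Enterocyte.prog.early. Its G2M median was 0.32, and those of the other 3 animals were -0.29 to -0.46. Its kinetochore (0.47), spindle (0.49) and anaphase (0.29) medians were likewise above 0 and those of the other animals below. The mean G2M score, described below, was 4.04 in its Enterocyte.prog.early cells (4.44 to 5.18 in the other animals) and 4.43 in its TA cells (4.11 to 4.31).

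**Figure D2:**
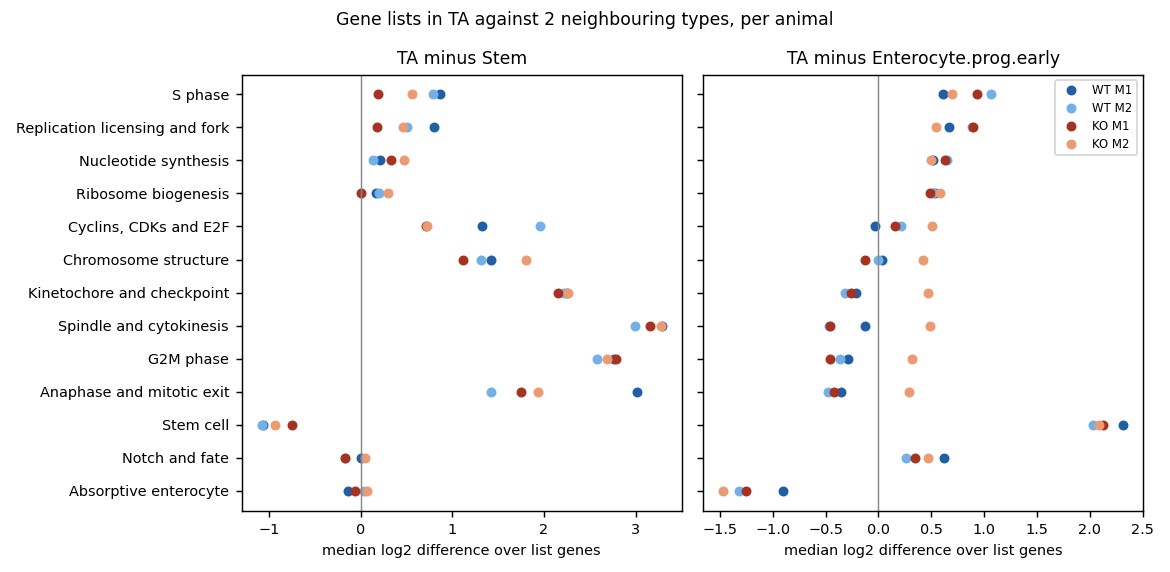
Median log2 difference over the genes of 13 lists between TA and Stem (left) and between TA and Enterocyte.prog.early (right), one point per animal. Spindle and G2M genes lie near 3 on the left and near 0 on the right, while the stem cell list lies below 0 on the left and above 2 on the right.

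Within TA, cells spread over the cell cycle. Each cell was scored as its mean log2(TPM + 1) over 43 S phase genes and, separately, over 54 G2M genes. The S score had a median of 4.59 (range 1.0997 to 6.61) and the G2M score a median of 4.39 (range 0.84 to 7.17). A limit at the 95th percentile of Enterocyte cells did not divide TA: 95.4% of cells were above it for both scores (1.26 for S and 1.28 for G2M), with 15 cells within 0.5 of the limit for G2M and 8 for S. The score with the higher value did, and was chosen after the values were seen. The G2M score exceeded the S score in 71 TA cells (40.6%), in 5 of 96 Stem cells (5.21%) and in 73.2% of Enterocyte.prog.early cells. In the plane of both scores TA cells lay along an arc. There were 22 cells with an S score of at least 5 and a G2M score under 3, 58 with S of at least 5 and G2M of at least 3, and 47 with S under 5 and G2M of at least 5. Only 11 had both scores under 3, and 27 cells lay within 0.5 of the limit at S = 5 and 23 within 0.5 of that at G2M = 3, so these are ranges and not classes. Stem cells filled the part of the arc with lower G2M scores, with 43 of 96 cells under 3 for both scores. Another 16 had S of at least 5 and G2M under 3, and 4 had S of at least 5 and G2M of at least 3. In Stem 0 cells had S under 5 and G2M of at least 5. Enterocyte.prog.early cells covered the same arc, with 7, 17 and 69 cells in the 3 ranges given for TA. Another 15 had both scores under 3.

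**Figure D3:**
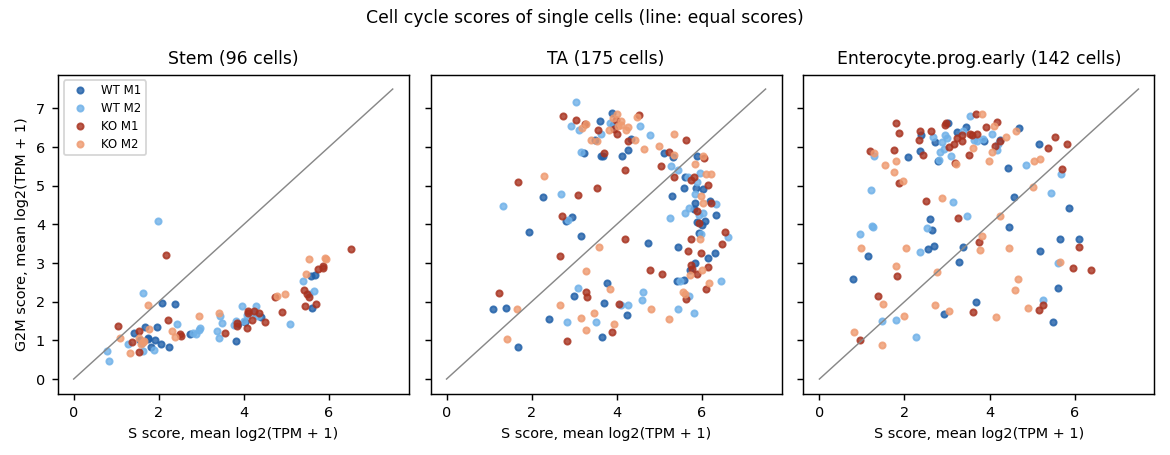
S score (x axis) and G2M score (y axis) of single cells in Stem, TA and Enterocyte.prog.early, coloured by animal, with the line of equal scores. TA cells run from low G2M along high S scores to high G2M scores, with 71 of the cells above the line, and the 4 animals are mixed along the arc.

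TA cells were ordered by the G2M score and cut into terciles (3 groups of nearly equal size) within each animal. The levels of mitotic genes along this order are not independent of the score that sets it. The S score was highest in the middle, with 4.30 ± 0.29 in the lowest tercile (57 cells), 5.02 ± 0.14 in the middle (58 cells) and 4.30 ± 0.20 in the highest (60 cells; SD, n = 4 animals). Cdt1, which loads the helicase onto origins and is not in either score, went from 183.04 ± 17.1 TPM to 149.98 ± 24.95 and 44.3 ± 22.4. Rrm2, the small subunit of ribonucleotide reductase and a member of the S score, was highest in the middle tercile, at 105.3 ± 58.5, 240.98 ± 36.2 and 109.7 ± 31.7 TPM. So was the S phase cyclin Ccne1, at 42.2 ± 20.9, 62.8 ± 8.56 and 15.9 ± 10.8 TPM. The histone Hist1h2ao went from 101.96 ± 101.2 TPM in the lowest tercile to 1550 ± 774 and 2268 ± 1043. Both runs are pooled in these terciles, and its level differed by run, as given above. Within each run and animal its Spearman's rho with the G2M score was 0.46 to 0.83. Ccnb1, the mitotic cyclin, went from 13.96 ± 6.73 to 94.3 ± 22.2 and 379.5 ± 77.4 TPM, and the mitotic kinase Plk1 from 17.04 ± 4.81 to 79.6 ± 49.2 and 269.7 ± 60.5. The lowest animal of the highest tercile was above the highest animal of the lowest tercile for Ccnb1 and Plk1, and the reverse held for Cdt1. The number of genes above 0 TPM per cell went from 5896 ± 135.5 to 6451 ± 255.99 and 7053 ± 211.6, and their part in these levels was not tested.

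The genes that moved most with each score, outside both scoring lists, were ranked by Spearman's rho across the TA cells of each animal (37 to 48 cells). These values describe cells that share an animal and a library type, and carry no p. Among 9711 genes above 0 in at least 20% of TA cells, those highest with the G2M score were Tuba1c (rho 0.80 to 0.92 over the 4 animals), Plk1 (0.82 to 0.89), Ccna2 (0.75 to 0.87), Ccnb1 (0.77 to 0.92), Prc1, Kif22, Tuba1b and Espl1, which encode tubulins, mitotic kinesins and regulators of chromosome separation. Lowest were Aldoa (-0.63 to -0.35), Cdt1 (-0.64 to -0.38), Gpx1, Krt19, the histone Hist1h2bc, Lgals4, Mcm3 and Paqr4. Among the highest with the S score were Tcf19 (0.70 to 0.77), the clamp loader subunit Rfc4 (0.61 to 0.76), Slfn9, the helicase subunit Mcm7 (0.63 to 0.72), the ligase Lig1, Hat1 and Ccne1. Lowest were Cdkn3 (-0.63 to -0.43), Epcam (-0.62 to -0.34), Knstrn, Cldn3, Hist1h2bc, Hnrnph1, Hsp90ab1 and Sun2. The S and G2M scores themselves were weakly related in rank (rho -0.15 to 0.11 per animal). The number of genes above 0 moved with the G2M score (rho 0.51 to 0.82) more than with the S score (0.27 to 0.38).

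Of the stem cell genes, Lgr5 varied along the cycle. It stood at 8.09 ± 9.47 TPM in the lowest tercile of the G2M score, 28.1 ± 9.38 in the middle and 75.3 ± 7.64 in the highest, and was above 0 in 40.4%, 58.6% and 86.7% of their cells. In KO M2 the lowest tercile had 22.1 TPM and the middle 14.4. Its rho with the G2M score was 0.39 to 0.56 per animal, and it was above 0 in 8 of 8 combinations of run and animal. Its rho with the number of genes above 0 was -0.10 to 0.36. Olfm4 did not follow that order, at 7593 ± 1901, 6213 ± 1637 and 10527 ± 742 TPM. The rho with the G2M score ran from below to above 0 over the animals for Ascl2 (-0.16 to 0.27) and for the fate genes Hes1 (-0.20 to 0.086) and Dll1 (-0.054 to 0.36). Of the cyclin kinase inhibitors, Cdkn1b (p27) was 5.60 ± 0.97 TPM in the lowest tercile and 15.6 ± 2.43 in the highest, and Cdkn1a (p21) was above 0 in 32.6% of TA cells, against 6.25% of Stem and 64.1% of Enterocyte.prog.early cells. Cyclin D2, from Ccnd2, was above 0 in every TA cell and went the other way, from 181.1 ± 35.1 to 120.02 ± 11.2 TPM. The absorptive score moved with the S score (rho 0.33 to 0.47) and the stem cell score with the G2M score (0.28 to 0.43). Of the TA cells, 75 (42.9%) had a stem cell score above the 5th percentile of Stem cells, and 11 (6.29%) had an absorptive score above the 95th percentile of Stem cells.

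Atoh1, the factor that commits cells to the secretory lineages, was above 0 in 11 TA cells (6.29%, exact binomial 95% interval 3.18 to 10.97%), against 1 of 96 Stem cells, 1 Enterocyte.prog.early cell and 70 of 70 Goblet cells. Its targets Spdef and Gfi1 were above 0 in 1 and 0 TA cells, and a count of 0 here allows a share up to 2.09% by the same interval. Notch1, the receptor that keeps progenitors out of the secretory fate, stood at 23.6 ± 2.27 TPM in TA, 30.7 ± 4.59 in Stem and 5.88 ± 1.08 in Enterocyte.prog.early. Its target Hes1 stood at 73.6 ± 17.04 TPM in TA, 95.05 ± 39.3 in Stem and 41.1 ± 12.3 in Enterocyte.prog.early. Markers of other cell types were then read in TA. All 10 Paneth and all 13 Goblet markers were above 0 in at least 1 TA cell, with summed means of 310 to 768 and 144.6 to 429 TPM per animal. Lyz1, the Paneth lysozyme, was above 0 in 67 TA cells, 39 Stem cells and 46 Enterocyte.prog.early cells. The T and NK cell list summed to 4.26 to 7.10 TPM and the stromal and endothelial list to 0.072 to 1.47 TPM. The myeloid list summed to 25.6 to 40.7 TPM, led by Cd14 (24.1 TPM), and the red cell list to 37.3 to 57.3 TPM, led by the globin gene Hba-a1 (39.4 TPM). The B and plasma cell list summed to 0.89 to 5.46 TPM. Above 0 in at least 1 TA cell were 7 of 10 T and NK cell genes and 7 of 8 myeloid genes. So were 6 of 9 stromal and endothelial genes and 5 of 6 B and plasma cell genes. Cd3d, of the T and NK cell list, was above 0 in 20.6% of TA cells. Among the members listed at 0 in every TA cell were Cd79a, Cd3g, Nkg7, Itgax, Col1a1 and Cdh5.

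The targeted gene was then read in TA cells. Atg16l2 was above 0 in 9 of 48 TA cells of WT M1 (18.8%, exact binomial 95% interval 8.95 to 32.6%) and 7 of 37 of WT M2 (18.9%, 7.96 to 35.2%). It was listed at 0 in all 47 TA cells of KO M1 and all 43 of KO M2. By the same interval this allows a share of cells with the transcript detected of up to 7.55% and 8.22%. These limits cover counting error only, at a depth that is unknown. Its mean was 10.6 TPM in WT M1 and 11.1 TPM in WT M2. Detection differed by run, at 7 of 28 and 6 of 16 WT cells in run 1 and 2 of 20 and 1 of 21 in run 2. The 16 WT TA cells with Atg16l2 had a median stem cell score of 4.81 (range 2.74 to 6.32), and the 69 without it one of 3.67 (2.20 to 6.35). The median G2M score was 5.35 and 4.18 and the median number of genes above 0 was 6663 and 6459. These cells are pooled over both animals and both runs, and most of those with Atg16l2 came from run 1. The part of run and cycle in the stem cell score was not tested. Atg16l1, the homologue, stood at 17.9 ± 0.034 TPM in WT and 17.1 ± 2.01 in KO (SD, n = 2 animals each).

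The last comparison asked whether TA cells of KO animals differed from those of WT animals. With 2 animals per genotype, p-values measure the spread between these animals, and the labels do not say more about how they were bred or housed. The share of TA cells did not separate the genotypes, at 25.4 ± 4.54% in WT and 26.3 ± 1.44% in KO (two-sided exact permutation p = 1). The G2M score exceeded the S score in 39.6% and 32.4% of WT and in 42.6% and 46.5% of KO cells. Both KO animals were above both WT animals, a difference of 8.52 percentage points (2.41 in run 1 and 12.1 in run 2). The exact permutation p was 0.3333, the smallest that 2 against 2 animals allow. The mean G2M score was 4.11 and 4.17 in WT and 4.31 and 4.43 in KO (exact permutation p = 0.3333), and the mean S score 4.46 and 4.69 in WT and 4.60 and 4.39 in KO (exact permutation p = 0.667). The G2M difference of 0.23 was 0.26 for run 1 and -0.013 for run 2, and it was -0.15 without the run 1 cells of KO M2. Top2a was above 0 in 92.4 ± 6.93% of WT and 87.7 ± 2.34% of KO cells (exact permutation p = 0.667), Cdk1 in 85.5 ± 8.998% and 80.9 ± 5.91% (p = 0.667) and Mki67 in 88.03 ± 2.19% and 89.8 ± 5.35% (p = 1). Over the 9 such values compared, every Benjamini-Hochberg adjusted p was 1.

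Across genes, limma (log2(TPM + 1), Benjamini-Hochberg over 6791 tested genes) called 4 at an adjusted p under 0.05, or 0.0589% of them. H2-Aa rose and Mt2, Rps27 and Hist1h2ap fell in KO. At an unadjusted p under 0.05 there were 541 genes. Both KO animals lay above both WT animals for 26.7% of the tested genes and below both for 13.3%, and the median difference of all tested genes was 0.08 (60.7% above 0). The share above 0 was 51.6% after quantile normalization, 52.7% without ribosomal protein genes and 49.6% without the run 1 cells of KO M2. The runs did not give the same directions: 50.7% of tested genes had the same sign of the KO minus WT difference in both runs. Of those separated by genotype within each run, 6.35% of all tested genes went the same way and 5.48% opposite ways. The count of 4 also depended on single animals and on the run 1 cells of KO M2. The share called was 3.47% without KO M1, and the count was 1 (Rps27) with the run 1 cells of KO M2 removed, 17 without KO M2, 9 without WT M1 and 0 without WT M2. No gene passed in limma after quantile normalization, without ribosomal protein genes or with each gene's highest cell left out (504, 482 and 537 genes at an unadjusted p under 0.05).

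Mt2 kept its direction within both runs. It encodes a metallothionein, a small protein that binds zinc and copper, and stood at 128.1 TPM in WT M1, 91.8 in WT M2, 25.5 in KO M1 and 41.1 in KO M2. Per run, WT animals had 165.8 and 109.1 TPM in run 1 and 75.3 and 78.7 in run 2, and KO animals 36.9 and 44.6 in run 1 and 16.4 and 33.8 in run 2, so the genotypes did not overlap in either. It was above 0 in 66.7% and 67.6% of WT TA cells and in 31.9% and 39.5% of KO TA cells. The log2 difference was -1.71 (SE 0.26, limma adjusted p = 0.0391), with -1.70 in run 1 and -1.66 in run 2. Mt1, the other metallothionein measured, had 552 and 516 TPM in WT and 415 and 353.7 in KO, a difference of -0.48 that missed the threshold (limma adjusted p = 0.572). With each run of each animal as a unit (8 units) Mt2 had a limma adjusted p of 0.0434 and was the 1 gene called, but both runs of an animal are repeat samples of it, and this p takes them as separate. When the run 1 cells of KO M2 were removed, its limma adjusted p was 0.218. In fits to a single run its limma adjusted p was 0.188 in run 1 and 0.996 in run 2. In 20 of 20 alternatives its direction held, with adjusted p from 0.0017 to 0.996. The alternatives reuse cells of the same animals, so a shared direction is no independent support. H2-Aa and Cd74 also kept their direction in 20 of 20. The difference of Mt2 in TA minus the mean of its differences in Stem and Enterocyte.prog.early was -1.74 (SE 0.30). Its adjusted p in limma was 0.997. Mt2 was also lower in KO in Enterocyte.prog.early, at 91.8 and 114.5 TPM in WT and 41.6 and 40.1 in KO, while Stem had 24.9 and 15.5 TPM in WT and 21.8 and 124.4 in KO, so the mean of both types was raised by KO M2 Stem cells.

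MHC class II transcripts, which present antigen to CD4 T cells, were higher in 6 of 6 tested members, with 1 past the threshold. Both KO animals were above both WT animals for 4 of the 6. Over all tested genes 60.7% were higher, 26.7% had both KO animals above both WT animals and 0.0589% were called. H2-Aa was above 0 in 60.4% and 54.1% of WT TA cells and in 89.4% and 81.4% of KO TA cells, with levels of 225.7 TPM in WT M1, 131.5 in WT M2, 704 in KO M1 and 471 in KO M2 (log2 difference 1.73, SE 0.26, limma adjusted p = 0.0372). KO M2 divided by run: its TA cells had 651 TPM of H2-Aa in run 1 (29 cells) and 97.04 TPM in run 2 (14 cells), where WT M1 and WT M2 had 168.5 and 135.7 TPM. KO M1 was high in both runs, with 883 and 560 TPM. Cd74, the invariant chain, showed the same split, with 1266 TPM in run 1 and 387 TPM in run 2 in KO M2, against 1465 and 1293 in KO M1 and 387 to 691 in the WT animals. Its log2 difference was 1.04 (SE 0.23, limma adjusted p = 0.389). H2-Ab1 differed by 1.29 and H2-Eb1 by 1.08, with adjusted p of 0.537 and 0.540 in limma. The list's median was 1.06 (0.08 for all tested genes), 1.41 in run 1, 0.38 in run 2 and 0.20 without the run 1 cells of KO M2. In TA minus the other types, H2-Aa differed by 0.45 (SE 0.20, limma adjusted p = 0.997).

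Rps27 and Hist1h2ap, both past the threshold over all cells, reversed between runs. Rps27, a ribosomal protein gene, had run 1 levels of 1781 and 2556 TPM in WT against 611 and 138.8 in KO. In run 2 the WT animals had 1.47 and 105.7 TPM and the KO animals 266.7 and 291.6. The log2 difference was -1.96 over both runs (SE 0.29, limma adjusted p = 0.0372), -2.87 in run 1 and 4.11 in run 2. Hist1h2ap, a replication-dependent histone, had 256.1 and 253.3 TPM in WT against 58.3 and 24.04 in KO in run 1, and 10.1 and 13.8 against 24.6 and 112.95 in run 2. Its difference was -1.53 overall (SE 0.23, limma adjusted p = 0.0372), -2.73 in run 1 and 2.07 in run 2. Both have near-identical copies in the genome. The submitters' notes name RSEM without a version, and its division of reads among copies was not tested here. Hist1h2ao, a histone gene of the same family with the same limit, had differences of -1.62 in run 1 and -0.32 in run 2. Its levels were 1872 and 1777 TPM in WT against 963 and 677 in KO, with a limma adjusted p of 0.108.

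**Figure D4:**
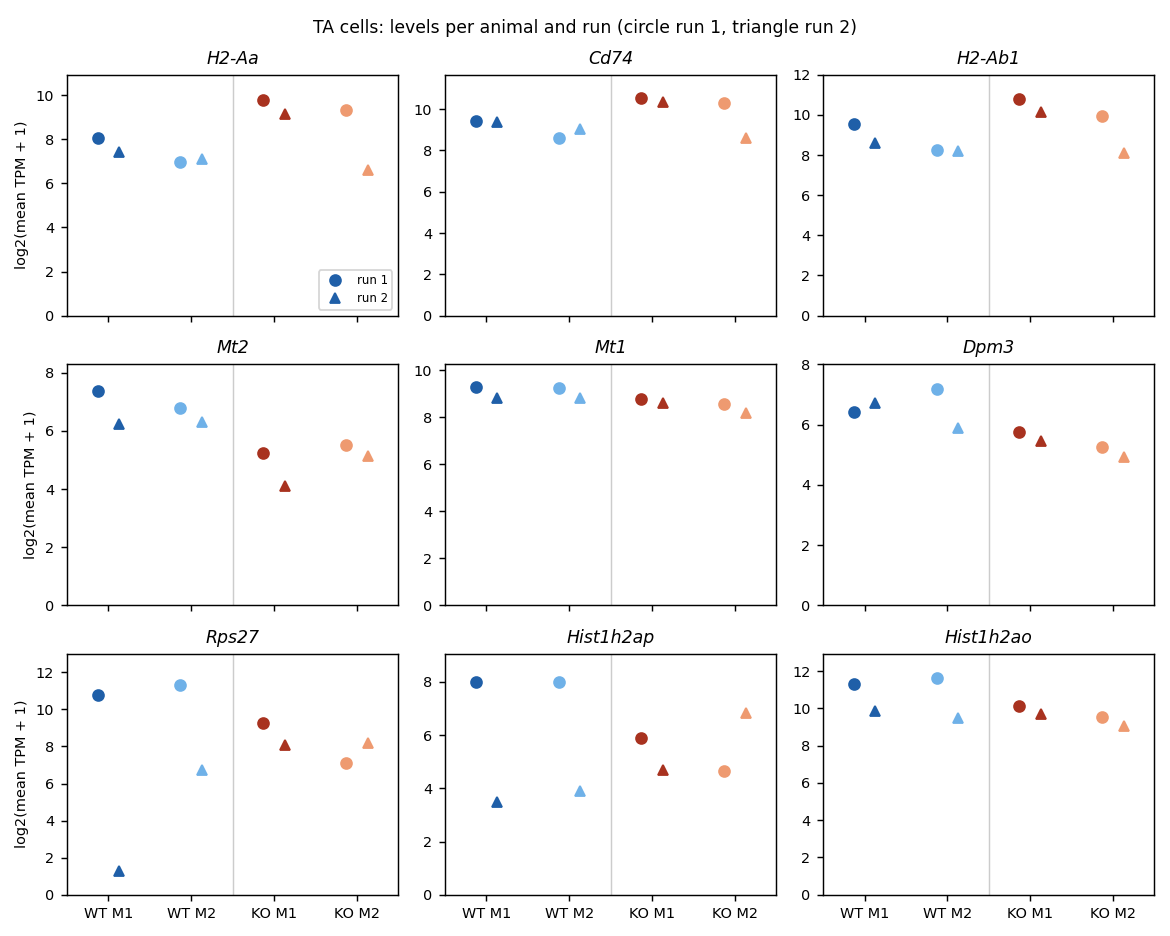
Level (log2(mean TPM + 1)) of 9 genes in the TA cells of each animal, circles for run 1 and triangles for run 2. Mt2 and Dpm3 are lower in every KO point than in the WT points of the same run, H2-Aa, Cd74 and H2-Ab1 are high in KO M1 and in the run 1 cells of KO M2, and Rps27 and Hist1h2ap change order between runs.

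Of the other genes with the smallest p among those that separated the genotypes with 1 sign in both runs, none passed the threshold. Lower in KO were Ifi27l1 (23.9 and 24.6 TPM in WT, 1.999 and 6.57 in KO), Dpm3, a subunit that anchors mannosyl transferase in the endoplasmic reticulum (93.1 and 95.2 against 47.8 and 34.8 TPM), Itln1, Spink3, Alkbh7, Taf10, Hist1h2ag and Mrpl54. Their log2 differences ran from -2.41 for Ifi27l1 to -0.72 for Mrpl54, with limma adjusted p of 0.126 to 0.540. Itln1 is a Paneth cell product on the Paneth list, whose 7 tested members had a median of -0.53. The summed level of the list was 403 and 768 TPM in WT and 310 and 644 in KO, and its part in the Itln1 difference was not tested. Higher in KO were Pggt1b (12.8 and 12.1 TPM in WT, 33.1 and 27.8 in KO), Wrb, Cyp2e1 (8.70 and 11.8 against 22.6 and 29.6 TPM), Mir5109, Nptn and Pon3 (22.005 and 20.1 against 38.1 and 43.2 TPM), with differences of 0.79 to 1.47 and limma adjusted p of 0.537 to 0.540.

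The 4 called genes (0.0589% of all tested genes) included no member of the S phase or G2M lists, and so few calls say little about either list. In the G2M list 44 of 51 tested members were higher in KO (28 with both KO animals above both WT animals, 1 with both below), with a median of 0.32. Over all tested genes 60.7% were higher, 26.7% had both KO animals above and 13.3% both below. The median was 0.26 in run 1, 0.078 in run 2 and 0.0067 without the run 1 cells of KO M2. The members with the smallest p were Gtse1 (16.6 and 18.7 TPM in WT, 29.6 and 35.3 in KO, difference 0.84), Nusap1 (41.9 and 52.4 against 72.03 and 78.8 TPM, 0.67), Ckap2 (26.3 and 34.9 against 55.7 and 43.4 TPM, 0.68) and the checkpoint kinase Ttk (15.5 and 17.6 against 32.9 and 23.9 TPM, 0.73). The most abundant, Tubb4b, Ube2c, Hn1 and Cks2, differed by -0.18 to 0.27. Top2a differed by 0.39 (SE 0.18, limma adjusted p = 0.618), Cdk1 by 0.33 (0.643) and Mki67 by 0.25 (0.777), each with both KO animals above both WT animals. Cdc25b, the phosphatase that activates Cdk1, was 17.2 and 31.1 TPM in WT and 42.6 and 53.9 in KO, a difference of 1.02 (limma adjusted p = 0.540) with 1.001 in run 1 and 0.96 in run 2. In the S phase list 15 of 39 were higher and 24 lower, with a median of -0.055 (0.10 in run 1, -0.22 in run 2). Its most abundant members Pcna, Mcm6, Cdca7 and Mcm5 differed by -0.26 to 0.15, and Cdc6, which licenses origins, by -0.77 (limma adjusted p = 0.596).

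The stem cell list was higher in 15 of 18 tested members, 8 of them with both KO animals above both WT animals, at a median of 0.24 (60.7% and 26.7% of all tested genes). That median was 0.37 in run 1, -0.036 in run 2 and -0.022 without the run 1 cells of KO M2. Olfm4 had 7450 and 7337 TPM in WT against 9353 and 8470 in KO, a difference of 0.27 that was 0.59 in run 1 and -0.44 in run 2. The absorptive list had a median of -0.0038 over 16 members, with 7 higher and 9 lower. The autophagy list had a median of 0.087 over 22 members, with 13 higher and 9 lower. It held none of the called genes, which were 0.0589% of all tested genes, so this says little about the list. Atg12 differed by 0.55 and Gabarapl2 by -0.40. Notch and fate genes were higher in 12 of 14 (median 0.31), and 3 of the 14 had both KO animals above both WT animals, against 26.7% of all tested genes. Among the higher members was Hes1, at 69.2 and 53.4 TPM in WT and 94.4 and 77.4 in KO. p53 targets had a median of 0.084 over 12 members. Btg2, an antiproliferative immediate early gene, was 4.94 and 8.16 TPM in WT and 18.4 and 12.3 in KO, a difference of 1.12 with a limma adjusted p of 0.540.

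**Figure D5:**
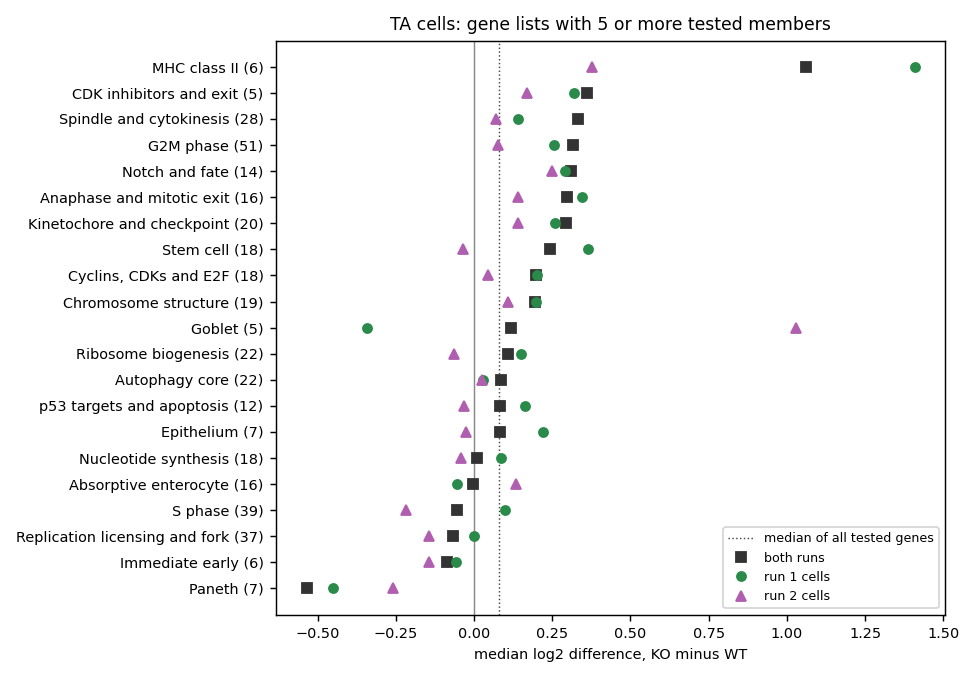
Median log2 difference (KO minus WT) in TA cells over the tested members of each list (number in brackets), for both runs together (squares), run 1 cells (circles) and run 2 cells (triangles), with the median of all tested genes dotted. MHC class II lies at 1.06 over both runs and 0.38 in run 2, the G2M list at 0.32 and 0.078, and the S phase list at -0.055 and -0.22.

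Whether the genotype difference in TA departed from that in Stem and Enterocyte.prog.early was tested per gene in limma. Of 7436 genes 0 passed (0%), with 4.10% at an unadjusted p under 0.05 and a smallest adjusted p of 0.997. Leaving out KO M1 gave 22 genes and leaving out KO M2 gave 23, in fits where the lone KO animal is assumed to vary like the WT animals. Of these, the smallest p went to Tff3 in the former and Defa17 in the latter, which are Goblet and Paneth products.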

How the data were processed

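The authors deposited 1 table of TPM values for 23420 genes in 677 cells, and each cell's values sum to 999999 to 1000001. Per the submitters' processing notes, Bowtie, TopHat and RSEM were used, and their versions and the genome build are not given in the sources used here. The labels name SMART-Seq2 and also a 10X kit. TPM keeps no depth, so the precision of a cell's values is unknown, and no count test was run.

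Genotype, animal code, run and cell type were read from the sample labels and the matching cell names. No cell was left out of the main values and no doublet caller was run. TPM was averaged over the TA cells of each animal, and means were compared as log2(mean TPM + 1). KO and WT were compared with limma 3.58.1 (R 4.3.3, eBayes with trend, Benjamini-Hochberg adjustment, threshold 0.05) over genes with a mean of at least 10 TPM and above 0 in at least 10% of TA cells. The difference between types was an interaction in the same kind of fit. Shares and scores were compared by exact permutation over animals. The script was tested on simulated data. Python 3.11.15 with numpy 2.4.6, pandas 2.3.3, scipy 1.17.1 and matplotlib 3.10.9 did the rest.

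Named genes were the 3 markers, Atg16l2 and Atg16l1. Added to these were the 8 largest mean differences per direction between types (50 TPM or more), every gene called, and the 10 smallest p per direction among genes that separated the genotypes with 1 sign in both runs. Also named were the 8 genes per end by rho with each score and up to 4 members per list by level and by p. A gene that this rule names is not reported here. Genes discussed within terciles of the G2M score, fate genes and some values per list fall outside this rule and were chosen after their values were seen. The members and lists were chosen with earlier results of these data known. Alternatives covered pseudocount, filters, normalization, runs, single animals and the replicate block. The mean scores, the comparison of both scores within a cell and leaving out 3 cells with over 1% Paneth and Goblet TPM were added after seeing the data.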

Additional observations from a re-analysis of the deposited data

Results flagged for a closer look

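The KO minus WT difference of Rps27 in TA cells went in opposite directions in the 2 runs, at -2.87 (log2) in run 1 and 4.11 in run 2, with both KO animals on one side of both WT animals each time. Hist1h2ap did the same, with -2.73 in run 1 and 2.07 in run 2. The difference between runs was not tested for either gene.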

How the results depend on the processing

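Of the comparisons of KO and WT over cells, these changed direction in run 2 cells: the TA share (-1.22 percentage points), the shares with a high G2M score (0.577), Top2a (2.46) and Mki67 (-5.83), and the mean G2M score (-0.013). The share with a high S score differed by 0 there, with every cell above the limit. The mean S score changed direction in run 1 cells (0.099) and the mean G2M score without the run 1 cells of KO M2 (-0.15). With the limit at the highest Enterocyte cell the high S and high G2M shares differed by 2.56 and 12.2 points, and the S share scored by genes above 0 by 0.144. The cause was not tested. Leaving out 1 animal gave -2.26 to 4.15 for the TA share, -1.09 to 1.04 and -4.45 to -0.287 for the high S and G2M shares, -9.59 to 0.204 for Top2a, -11.0 to 1.76 for Cdk1, -1.99 to 5.58 for Mki67, -0.19 to 0.036 and 0.17 to 0.29 for the mean S and G2M scores, and 4.95 to 12.1 for cells with the higher G2M score.

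The share of tested genes called in limma was 0.0589% (4 genes). It was 0 with no filter (5.29% at an unadjusted p under 0.05), a filter of 50 TPM (9.19%), quantile normalization (7.42%), no ribosomal protein genes (7.19%), run 2 alone (4.16%), no trend (7.24%), cells of at least 5000 genes (7.49%), the highest cell left out (7.91%) or cells over 1% Paneth and Goblet TPM left out (8.12%). It was 0.0292% in run 1 (2 genes), 0.0149% without the run 1 cells of KO M2 (1 gene) and 0.0147% with 8 combinations of run and animal (1 gene). Leaving out 1 animal gave 0 to 3.47%, where the lone animal is assumed to vary like the other genotype. The share for the difference between types was 0.0134% in run 2 (1 gene) and 0 to 0.309% without 1 animal. The labels do not say that M numbers pair animals, and the deviations of WT M1 correlated at -0.025 with those of KO M1. With the replicate block, 0.147% (10 genes) were called, the 4 among them, and the difference between types called 0. Rps27 reversed in run 2 (4.11) and over the 8 combinations (0.62), and Hist1h2ap in run 2 (2.07).

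List medians for KO minus WT moved as follows. In run 2 they were -0.22 (S phase), 0.078 (G2M), -0.036 (stem cell), 0.14 (absorptive) and 0.38 (MHC class II). In run 1 they were 0.37 (stem cell) and -0.053 (absorptive). Without the run 1 cells of KO M2 they were 0.0067 (G2M), -0.022 (stem cell) and 0.20 (MHC class II). With the mean of log2 over cells they were 0.23 (G2M), 0.29 (stem cell), -0.24 (absorptive) and 1.96 (MHC class II). With 8 combinations they were 0.18 (G2M) and 0.14 (stem cell). The stem cell median was 0.18 with a pseudocount of 10, 0.16 at 50 TPM, 0.13 after quantile normalization and 0.18 without ribosomal protein genes, and the absorptive one -0.046 and -0.076 under the last 2. Leaving out 1 animal gave -0.21 to 0.089 (S phase), 0.20 to 0.38 (G2M), 0.17 to 0.24 (stem cell), -0.12 to 0.042 (absorptive) and 0.72 to 1.48 (MHC class II). Between types, a pseudocount of 10 gave 0.66 (S phase against Enterocyte.prog.early), 1.74 (G2M against Stem), -0.72 and 1.37 (stem cell against Stem and Enterocyte.prog.early). The G2M list against Stem was 2.97 in run 2, and against Enterocyte.prog.early the stem cell list was 2.30 and the absorptive list -1.39 in run 1. Depth is unknown in TPM, which limits what a value of 0 in a cell shows.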
